A study of Eptesicus fuscus and Canis lupus familiaris and Equus caballus with 4 samples.

Results

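Copies of 4 conserved miRNAs were examined in the hairpin candidates listed from adult testis of the big brown bat, Eptesicus fuscus. The copies were the rows of the bat list whose mature sequence was identical to that of miR-9-5p (Candidate_119), miR-124-3p (Candidate_712), miR-1-3p (Candidate_709) or miR-133a-3p (Candidate_400), and they numbered 10 of the 762 bat rows and of 1453 rows in the lists of all species. There were 3 rows of miR-9-5p, 3 of miR-124-3p, 2 of miR-1-3p and 2 of miR-133a-3p. Each row is a hairpin candidate, that is a genomic stretch predicted to form a stem and loop, with small RNA reads on 1 of its arms. Only the mature sequence chose the rows, but every row had been predicted to fold, so the opposite arm has to pair with that sequence in each copy.

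The study sequenced small RNA from snap-frozen testes of adult dog, horse and big brown bat, with no treatment or genotype contrast given. Of 4 libraries, 3 were used here, 1 per species, and the library of the other bat individual is left aside. All values of the copies come from 1 bat library, so there is no replicate check and no test between species. With every distinct mature sequence entered a single time, the bat rows summed to 78353 reads, and the median row had 3. The testis label was not checked against marker miRNAs here.

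MiRNAs are cut from hairpin precursors by Drosha and then Dicer, and 1 strand of the remaining duplex guides Argonaute to mRNAs that match its seed, bases 2 to 8. Several vertebrate miRNAs are encoded at more than 1 locus, and these loci can give the same mature sequence from hairpins that differ elsewhere. MiR-9 and miR-124 are best known from the nervous system, where miR-9 acts in neural progenitors and miR-124 in neurons. MiR-1 and miR-133a are known from skeletal and heart muscle, where they are often transcribed together. In bulk testis RNA, fewer cells that contain a miRNA and less of it per cell cannot be told apart.

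The 4 mature sequences and that of a related row are shown first, because all counts below rest on them. They are printed 5′ to 3′ as DNA letters, with bases 2 to 8 of each listed sequence, taken as its seed, in capitals. The 4 seeds taken in this way differ from each other. The listed starts, that of miR-124-3p included, were not checked against reference sequences, and a start shifted by 1 base would shift the seed.
miR-9-5p: tCTTTGGTtatctagctgtatgagt
miR-124-3p: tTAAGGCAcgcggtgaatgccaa
miR-1-3p: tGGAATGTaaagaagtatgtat
miR-133a-3p: tTTGGTCCccttcaaccagctgta
Candidate_834: tGGAATGTaaggaagtgtgtggt
The listed lengths were 25 bases for miR-9-5p, 23 for miR-124-3p, 22 for miR-1-3p and 24 for miR-133a-3p. Candidate_834 was the only other row of any list with 1 of these seeds as listed. It shared the seed of miR-1, had 4 mismatches to miR-1-3p over 22 bases and is the sequence known as miR-206, a skeletal muscle relative of miR-1.

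The 3 hairpins of miR-9-5p show the pattern most plainly and are printed with the mature sequence in capitals. Coordinates refer to the contigs of the bat list, whose names begin with ALEH, and the sources used here do not name that assembly.
Candidate_119: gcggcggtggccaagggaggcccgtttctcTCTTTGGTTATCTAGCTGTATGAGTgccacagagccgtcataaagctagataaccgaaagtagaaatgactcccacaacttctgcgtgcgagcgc
Candidate_676: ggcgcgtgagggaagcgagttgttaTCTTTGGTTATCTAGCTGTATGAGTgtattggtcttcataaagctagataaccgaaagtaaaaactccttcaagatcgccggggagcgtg
Candidate_863: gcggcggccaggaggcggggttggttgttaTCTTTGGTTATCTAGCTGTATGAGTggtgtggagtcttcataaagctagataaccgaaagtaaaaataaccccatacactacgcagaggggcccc
Candidate_119 lay at ALEH01144651.1:827-951 on the minus strand, Candidate_676 at ALEH01016971.1:5608-5722 on the minus strand and Candidate_863 at ALEH01118467.1:21070-21194 on the plus strand. Whether a copy lies in an exon or an intron was not determined, since the contigs were used without a gene annotation.

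The hairpins of miR-124-3p were the longest of the 10 by median and carry the mature sequence downstream of the loop.
Candidate_712: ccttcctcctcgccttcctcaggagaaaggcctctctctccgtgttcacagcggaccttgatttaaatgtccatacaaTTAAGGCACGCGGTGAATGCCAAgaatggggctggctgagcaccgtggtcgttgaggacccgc
Candidate_829: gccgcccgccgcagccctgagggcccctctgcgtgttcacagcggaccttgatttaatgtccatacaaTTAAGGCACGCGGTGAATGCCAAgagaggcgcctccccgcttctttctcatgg
Candidate_888: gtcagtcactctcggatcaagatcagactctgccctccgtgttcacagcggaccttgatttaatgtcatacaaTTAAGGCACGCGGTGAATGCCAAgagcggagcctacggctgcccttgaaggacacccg
They lay at ALEH01089659.1:15700-15840 on the minus strand, ALEH01128825.1:19731-19851 on the plus strand and ALEH01087469.1:9356-9486 on the minus strand.

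The muscle miRNAs had 2 hairpins each, shown together because a miR-1 and a miR-133a hairpin shared a contig.
Candidate_709: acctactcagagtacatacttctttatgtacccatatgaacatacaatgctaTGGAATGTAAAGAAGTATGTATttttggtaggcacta
Candidate_838: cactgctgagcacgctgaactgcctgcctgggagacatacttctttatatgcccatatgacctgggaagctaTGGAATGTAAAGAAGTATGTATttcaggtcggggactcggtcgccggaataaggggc
Candidate_400: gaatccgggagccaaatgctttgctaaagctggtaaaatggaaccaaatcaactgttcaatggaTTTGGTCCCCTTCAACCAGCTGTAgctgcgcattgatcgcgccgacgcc
Candidate_708: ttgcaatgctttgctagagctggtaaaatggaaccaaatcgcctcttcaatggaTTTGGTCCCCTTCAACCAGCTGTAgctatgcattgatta
Candidate_709 (miR-1) lay at ALEH01014356.1:9926-10014 and Candidate_708 (miR-133a) at ALEH01014356.1:6174-6266, both on the minus strand. Candidate_838 (miR-1) lay at ALEH01128792.1:2324-2452 and Candidate_400 (miR-133a) at ALEH01128793.1:560-672, both on the plus strand.

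**Figure D1:**
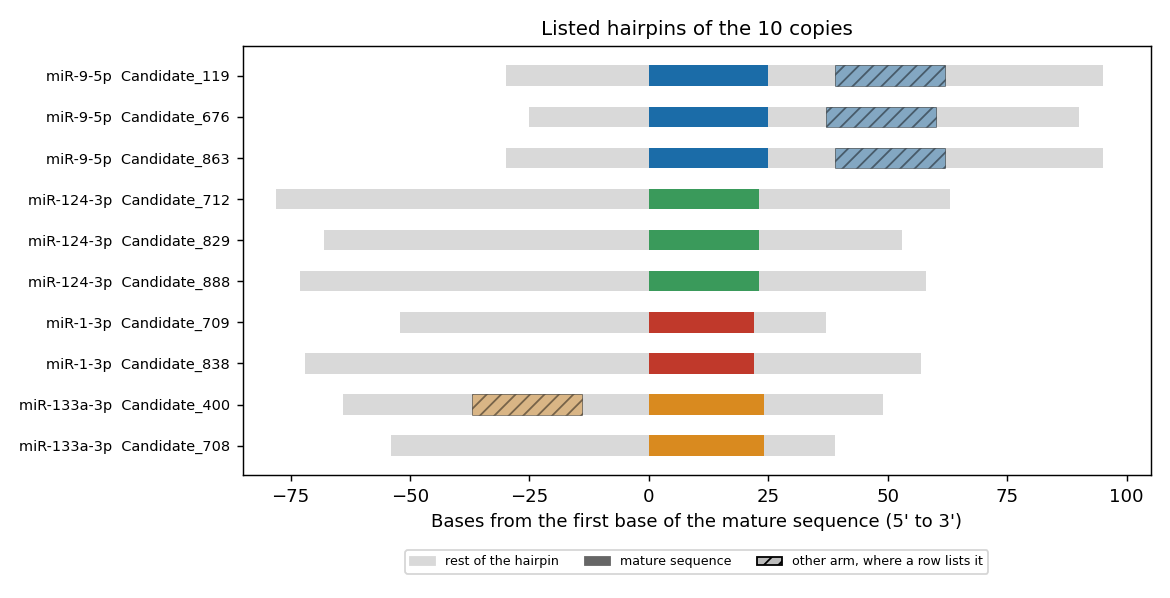
Each bar is the listed hairpin of 1 copy, in bases from the first base of its mature sequence, with the mature sequence in colour and the other arm hatched where a row of its own lists it at that copy. The mature sequence of the 3 miR-9 copies precedes the loop, that of the other 7 copies follows it, and the hatched rows occur at the 3 miR-9 copies and at Candidate_400.

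Each copy of a mature sequence listed the same number of reads. MiR-9-5p listed 195 reads (exact Poisson 95% interval 168.6 to 224.4) from 20 distinct read sequences at each of Candidate_119, Candidate_676 and Candidate_863. MiR-133a-3p listed 52 reads (38.8 to 68.2) from 17 distinct sequences at both of its copies. MiR-1-3p listed 26 reads (17.0 to 38.1) from 9 distinct sequences at both copies, and miR-124-3p listed 9 reads (4.12 to 17.1) from 7 distinct sequences at each of its 3 copies. The values within a miRNA were equal, so the list gives no reading of which copy the reads came from. Equal reads at every copy were the rule in the bat list, where 95.6% of the 68 sets of rows with an identical mature sequence had them, so the 4 of 4 seen here is close to the background.

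Counted once, the 4 sequences differed from each other by more than counting error, which is all that these intervals cover. MiR-9-5p had 3.75 times the reads of miR-133a-3p (exact interval 2.75 to 5.20), 7.50 times those of miR-1-3p (4.97 to 11.8) and 21.7 times those of miR-124-3p (11.2 to 48.1). MiR-1-3p had 0.50 times the reads of miR-133a-3p (0.300 to 0.815), and miR-124-3p had 0.346 times those of miR-1-3p (0.143 to 0.762). The neural pair thus stood at both ends of the order, with miR-9 highest and miR-124 lowest, and the muscle pair lay between them. MiR-206 at Candidate_834, ALEH01131208.1:9592-9732 on the plus strand, had 20 reads (12.2 to 30.9), and its interval overlapped those of miR-1-3p and miR-124-3p.

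As a share of the listed bat reads with identical sequences once, miR-9-5p made up 0.249% (exact Clopper-Pearson interval 0.215 to 0.286) and ranked 73 among 647 distinct mature sequences. MiR-133a-3p made up 0.0664% (0.0496 to 0.0870, rank 118), miR-1-3p 0.0332% (0.0217 to 0.0486, rank 154) and miR-124-3p 0.0115% (0.00525 to 0.0218, rank 227). All 4 were above the list's median of 3 reads. Of the 10 copies, 9 were predicted by all 5 models of the authors' program, and the miR-124 copy Candidate_829 by 4.

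**Figure D2:**
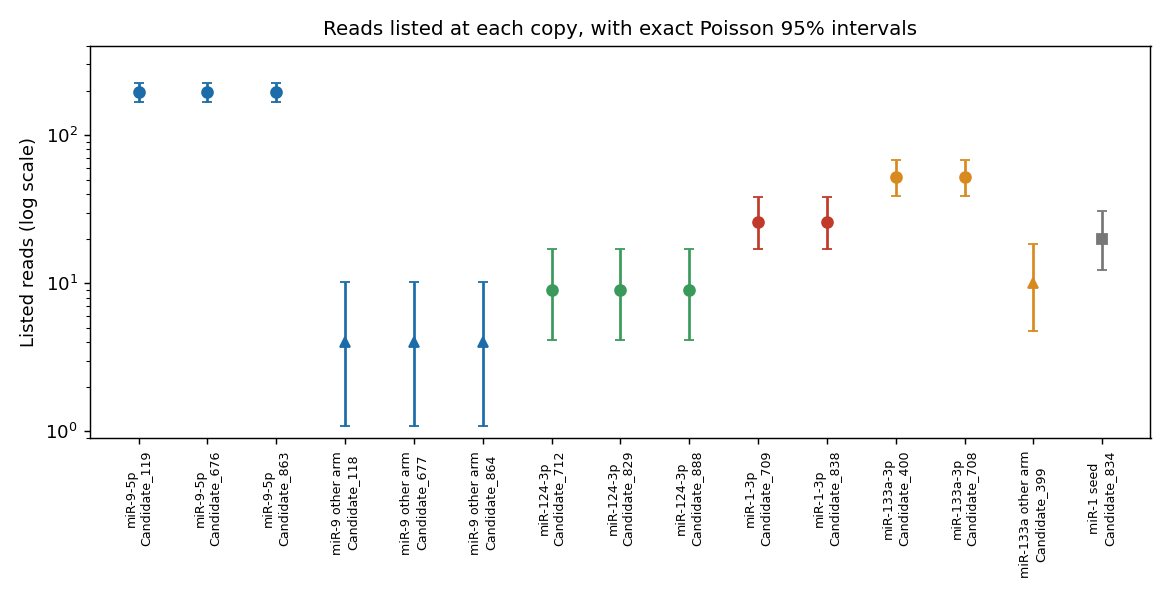
Points are the listed reads on a log scale at each copy (circles), at rows for the other arm (triangles) and at the row with the miR-1 seed (square), and bars are exact Poisson 95% intervals. Copies of 1 sequence sit at the same height, at 195 for miR-9-5p, 52 for miR-133a-3p, 26 for miR-1-3p and 9 for miR-124-3p.

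The run of bases common to all copies of a miRNA extended only a little beyond the mature sequence. For miR-9-5p the 3 hairpins shared 0 bases before it and 1 after it, a run of 26 bases. The shared run was 32 bases for miR-124-3p (7 before and 2 after), 28 for miR-1-3p (4 before and 2 after) and 36 for miR-133a-3p (9 before and 3 after). A read that lies within such a run matches every copy equally, and a read that reaches past it does not. The read sequences themselves are not analysed here, so how many of them reached past the run was not tested.

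Reads from the other arm of the duplex were listed for 2 of the 4 miRNAs. Over all 68 bat sets, 19.1% had an overlapping row for the other arm at 1 or more copies. The 68 sets include the 4 miRNAs themselves. Both arms of a locus can each form a set, as those of miR-9 do, so a locus can count more than once. The 68 sets had a median of 2 reads, against 39 for the 4 miRNAs, so that share is not a background of like read counts. Among the 14 other sets with at least 10 reads, such a row was as frequent as among the 4. MiR-9-3p, the partner strand of miR-9-5p, had 4 reads (1.09 to 10.2) from 3 distinct sequences at each of Candidate_118, Candidate_677 and Candidate_864, which overlap the 3 miR-9 hairpins. Its sequence carries the finding that both arms are the same at every miR-9 copy.
miR-9-3p: ataaagctagataaccgaaagta
Counted once, miR-9-5p made up 97.99% (94.9 to 99.5) of the 199 reads of the 2 arms.

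For miR-133a the other arm was listed at only 1 copy, although both hairpins hold its sequence. Candidate_399, at ALEH01128793.1:557-677, overlaps Candidate_400 and listed 10 reads (4.80 to 18.4) from 5 distinct sequences.
miR-133a-5p: agctggtaaaatggaaccaaatc
The hairpin of Candidate_708 holds the same 23 bases, but no row lists them there. The run shared by both hairpins is exactly these 23 bases, with 0 shared bases before and 0 after, and the base before them differs as A27G, counted from the 5′ end of the Candidate_400 hairpin to its aligned base in Candidate_708. Counted once, miR-133a-3p made up 83.9% (72.3 to 92.0) of the 62 reads of both arms, an interval that lies below that of miR-9-5p. No row for the other arm of miR-124 or miR-1 was listed, and at 9 and 26 reads for the listed arm a low share of the other arm may not have been detectable.

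Folding gave an arm for each copy and it was the same within each miRNA. The mature sequence lay on the 5′ arm in the 3 miR-9 hairpins and on the 3′ arm in the other 7, both by its position in the hairpin and by the side of the loop in the minimum free energy structure. In these structures 21, 22 and 22 of the 25 bases of miR-9-5p were paired, 18 of 23 in each miR-124-3p copy, 21 and 20 of 22 in the miR-1-3p copies and 19 of 24 in both miR-133a-3p copies. In the hairpins that hold both arm sequences, the 3′ arm ended 2 or 3 bases past the base opposite the start of the 5′ arm. At Candidate_708 the 5′ arm was placed by its sequence only, since no row lists it there. At the loop side the 5′ arm ended 2 bases past the base opposite the start of the 3′ arm in both miR-133a copies and 4 bases past it in the 3 miR-9 copies. Drosha and Dicer typically leave short 3′ overhangs.

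Folding energies of the whole listed hairpins ran from -56.0 kcal/mol for the miR-9 copy Candidate_119 to -36.0 kcal/mol for the miR-1 copy Candidate_709, which was also the shortest hairpin at 89 bases. The other miR-9 copies had -50.3 and -46.0 kcal/mol, the miR-124 copies -52.5, -44.1 and -41.4, the other miR-1 copy -48.5 and the miR-133a copies -39.8 and -40.9. Copies of 1 miRNA thus differed in energy, in whole hairpins least for miR-133a. That order depended on the listed lengths. Per 100 bases the miR-133a copies were at -35.2 and -44.0 kcal/mol and the miR-1 copies at -40.4 and -37.6. Cut to the mature sequence, loop and opposite arm, they were at -22.9 and -24.8 for miR-133a and -22.8 and -23.0 for miR-1. For whole hairpins the ranges of miR-9, miR-124 and miR-1 overlapped, and both miR-133a copies lay within the range of miR-1. Per 100 bases the 10 copies had a median of -38.8 kcal/mol (range -44.8 to -31.6), beside a median of -41.4 over all 762 bat rows. Candidate_119 at -44.8 and Candidate_708 at -44.0 were more stable per base than that median, and the other 8 copies were less so. Their GC content had a median of 50.8%, beside 55.5% over all bat rows, and ranged from 33.7% in Candidate_709 to 60.3% in Candidate_829.

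Outside the mature sequence most aligned positions were identical between copies of miR-9, miR-124 and miR-1, but a large share was not. The 3 miR-9 pairs were 69.7%, 70.3% and 70.6% identical (the lowest with an exact interval of 59.7 to 78.5), and the 3 miR-124 pairs were 68.2%, 70.1% and 70.5% identical (lowest 58.5 to 76.9). The miR-1 pair was 71.0% identical (58.8 to 81.3). The miR-133a pair was the closest, at 83.1% (72.3 to 91.0), with 12 differing columns among 71, and its interval overlapped the others. These alignments allowed gaps, which raise identity. Held at the mature sequence with no gaps, the miR-9 pair of Candidate_119 and Candidate_863 was still 63% identical, while the other 2 miR-9 pairs were at 32.2% and 38.9%. The miR-124 pairs were then between 34.3 and 35.7%, the miR-1 pair at 35.8% and the miR-133a pair at 82.6%. With gap columns left out instead, the miR-124 pair of Candidate_712 and Candidate_829, at 87.8%, was above the miR-133a pair, at 85.5%.

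The differences were not spread evenly over the hairpin. The opposite arm, the stretch paired with the mature sequence, was 87.0 to 100% identical over the 8 pairs, with a median of 97.9%, and 4 of the 8 pairs had no difference in it. This arm has to pair with the same mature sequence in every predicted hairpin, so its high identity was partly set in advance. Its contrast with the other parts is a description and was not tested. All 3 miR-9 pairs and the miR-124 pair of Candidate_712 and Candidate_888 were identical there. The outer stretches, beyond both arms, had medians of 62.3% on the side of the mature sequence and 58.6% on the opposite side, and in none of the 8 pairs were they free of differences. Arms and loop were taken from the fold of the first copy of each pair, and columns of 1 alignment are not independent.

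The loop divided the miRNAs. In miR-124 the loops were nearly the same, with 1 or 2 differing columns of 16 or 17 and identities of 88.2, 93.8 and 94.1%. In miR-9 the loops differed most, with 7 of 12 columns differing between Candidate_119 and each of the other copies, and 3 of 10 between Candidate_676 and Candidate_863. Candidate_119 thus had the loop that stood apart, with C58T, C60T, C65T and G67T common to both comparisons, counted from the 5′ end of its hairpin. The miR-1 loops differed at 6 of 18 columns and the miR-133a loops at 3 of 16, the latter as A51G, A52C and G55C counted from the 5′ end of Candidate_400.

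The opposite arm of miR-1 was the least alike. It differed at 3 of 23 columns between Candidate_709 and Candidate_838, as G28A, as A30G, counted from the 5′ end of Candidate_709, and at a gap column. In miR-133a the only difference in that arm was the A27G given above, which falls just before the listed miR-133a-5p.

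**Figure D3:**
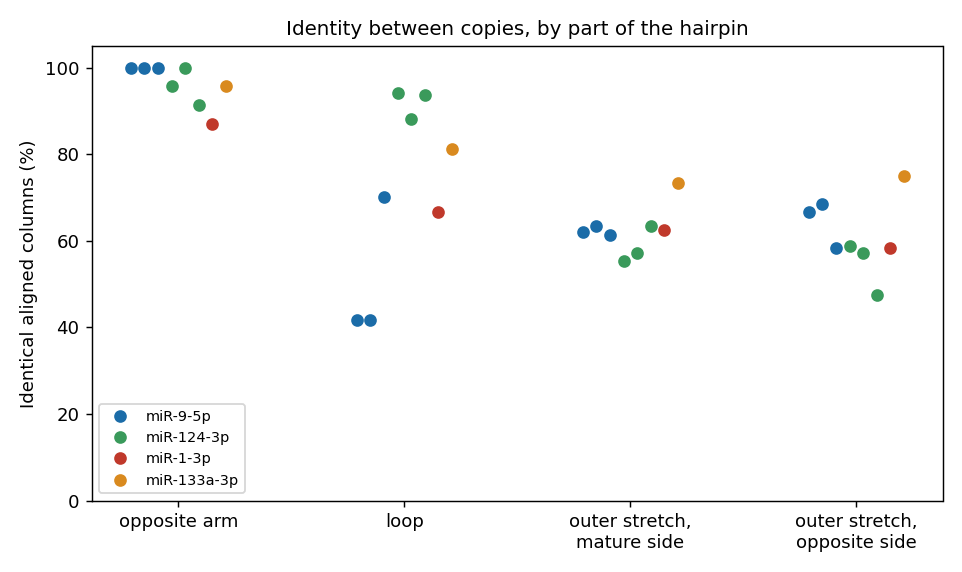
Points are the 8 pairs of copies, with the percentage of identical aligned columns in 4 parts of the hairpin, gap columns counted as differences. The opposite arm lies between 87.0 and 100% in every pair, the loop ranges from 41.7% in 2 miR-9 pairs to 94.1% in a miR-124 pair, and the outer stretches lie between 47.4 and 75.0%.

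The 10 copies lay on 9 contigs, and the contig that held 2 of them carried a muscle pair. On ALEH01014356.1 the miR-1 hairpin preceded the miR-133a hairpin in the direction of the minus strand, with 3659 bases between them. The other miR-1 and miR-133a copies lay on contigs with consecutive names, ALEH01128792.1 and ALEH01128793.1, on the plus strand of each, but the distance between contigs is not given by the list. The miR-124 copy Candidate_829 lay on ALEH01128825.1. The only other bat rows on the 9 contigs were the 4 rows for the other arms described above, so no further candidate lay on the contig of a copy. Neighbours on adjoining contigs cannot be seen in the list.

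The RefSeq gene table for Eptesicus fuscus, on the newer assembly DD_ASM_mEF_20220401, names as many genes as there were copies: MIR9-1, MIR9-2 and MIR9-3, MIR124-1, MIR124-2 and MIR124-3, MIR1-1 and MIR1-2, and MIR133-1 and MIR133-2, beside a single MIR206. In that table MIR1-1 and MIR133-2 are next to each other with 0 genes between, as are MIR1-2 and MIR133-1. All 4 of these share a chromosome with MIR124-3, while the 3 MIR9 genes are on 3 chromosomes. The table gives no sequences, so which copy is which gene was not matched, and the origin of its entries is not given, so it is not established that the equal numbers are independent of the list.

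Among the bat sets of rows with an identical mature sequence, miR-9, miR-124 and miR-1 lay below the median identity and miR-133a above it. The lowest identity outside the mature sequence in each set had a median of 70.4% for the 4, beside 78.2% over all 68 sets (range 51.7 to 100%). Many sets rested on very few reads, with a median of 2 reads over all sets and 39 for the 4. Of 14 other sets with at least 10 reads, 7 had copies more alike than those of miR-133a, 4 fell within the range of the 4 miRNAs and 3 fell below it. No test was made of this placing.

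The 3 sets nearest to the median of the 4 miRNAs in this measure, 70.4%, were also conserved miRNAs. They were taken among sets on different contigs with at least 10 reads. Sets near miR-133a alone, at 83.1%, were not sought. Candidate_138 and Candidate_530 listed miR-199a-5p with 244 reads each and were 68.5% identical outside it. The 3 copies of miR-199a-3p led by Candidate_139 listed 256 reads each, with a lowest identity of 68.1%. Candidate_588 and Candidate_740 listed miR-365-3p with 16 reads each and were 73.4% identical. The likeness is in divergence of the hairpins within 1 library, and the first 2 sets share hairpin loci with each other.

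Neither the horse list of 439 rows nor the dog list of 252 rows held any of the 4 sequences. No horse or dog mature sequence matched with at most 2 mismatches over 18 bases or shared a seed as listed, and none of their hairpins held 1 of the 4 sequences with at most 2 mismatches. The bat list is named as a list of new miRNAs. With identical sequences once, it held 78353 reads, and the deposited fractions place all bat reads analysed between 98889 and 99340. The horse list held 49454 of 545429 to 549348, and the dog list 54563 of 507211 to 512666. The horse and dog lists thus covered a smaller part of their reads. Whether known miRNAs had been removed before these lists were made is not stated, so these counts do not measure expression in horse or dog testis.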

How the data were processed

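Testis small RNA was read as 50 bp single-end sequences, per the labels' protocols. Hairpin candidates came from a local miRanalyzer installation, per the deposited column notes. The deposited read counts are whole and not normalized. The score that the authors deposited says how many of 5 models called a candidate, and their deposited fraction divides its reads by all reads analysed, to 3 decimals. Processing notes of the submitters name CanFam3.1 for all species. The bat build, mapping and trimming are not stated. All 1453 rows held the mature sequence at its stated place.

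The stretches before and after the mature sequence were aligned separately with biopython 1.88 (match 2, mismatch -2, gap opening -4, extension -1), and ends listed for 1 copy were not compared. Structures came from RNAfold 2.7.2, intervals from scipy 1.17.1 and figures from matplotlib 3.10.9, in Python 3.11.15. Alignment and matching were tested on simulated data. The simulated hairpin pairs held substitutions and a shortened end but no insertions or deletions, so the gapped identities were not checked by them. Intervals cover counting error only, since reads without molecular identifiers are not independent molecules. In the count over all sets, a row for the other arm overlapped at least 50% of the shorter hairpin on the same strand. The text names all copies, other rows on their contigs, rows with the same seed and 3 other sets on different contigs with at least 10 reads. These 3 sets were the nearest to the median lowest identity of the 4 miRNAs. Alternatives were other match rules, read and model minimums, merged rows, sequences once, other alignments, a cut hairpin and subsets of sets. Members and lists were chosen with earlier results of these data known. No reference mature sequences were used, so markers were not matched.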

Additional observations from a re-analysis of the deposited data

How the results depend on the processing

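Copy numbers changed by over 1.5 times under 2 of the alternatives run. Counting rows whose hairpin holds the mature sequence anywhere gave 6 rows for miR-9-5p, since the other-arm rows hold it too, and a minimum of 10 reads left 0 rows of miR-124-3p. Changes of exactly 1.5 times, by 1 row, are not in that count. They were 3 rows for miR-1-3p by seed, 3 for miR-133a-3p with the sequence anywhere in the hairpin, and 2 for miR-124-3p with all 5 models. Reads summed over copies were 585 for miR-9-5p, 104 for miR-133a-3p, 52 for miR-1-3p and 27 for miR-124-3p, against 195, 52, 26 and 9 with the identical sequence once, because each copy lists the same number of reads. Identity outside the mature sequence depended on gaps for 3 miRNAs. With 30 bases on either side and no gaps the lowest value was 36.4% for miR-9, 41.7% for miR-124 and 42.2% for miR-1, and over the whole hairpin with no gaps 32.2%, 34.3% and 35.8%. These are the lowest pairs, and the miR-9 pair of Candidate_119 and Candidate_863 gave 65% and 63%. With gap columns left out the lowest miR-124 value was 82.95%. Counting ends listed for 1 copy as differences, a choice made after seeing the data, gave 44.95% for miR-1 and 66.3% for miR-133a, whose hairpins are listed at unequal lengths. The miR-133a pair was the closest in the main alignment and without gaps (84.4% and 82.6%), but with gap columns left out it was at 85.5%, below a miR-124 pair at 87.8%, and with such ends counted it fell below the lowest miR-9 value of 67.7%. The median folding energy of the copies, -45.0 kcal/mol, was -23.1 kcal/mol for hairpins cut to the mature sequence, loop and opposite arm, which are shorter. The 3 copies on the 5′ arm and the 0 horse and dog rows were the same under their alternatives, and the median over all sets, 78.2%, was 78.2% for sets on different contigs and 82.8% for sets with at least 10 reads, the latter chosen after seeing the data. No paired analysis was possible because 1 library per species was used. The depth limits miR-124-3p and the other arms most, at 4 to 10 reads.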
